A study of Rattus norvegicus with 88 samples.

Results

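The genes described are the 13 protein genes of the rat mitochondrial genome, chosen by their Ensembl identifiers and not by any level, from a table of 17123 genes. All 13 had a row, and each was above 0 in all 80 libraries. In their order along that genome they are Nd1 (ENSRNOG00000030644), Nd2 (ENSRNOG00000031033), Co1 (ENSRNOG00000034234), Co2 (ENSRNOG00000030371), Atp8 (ENSRNOG00000033299), Atp6 (ENSRNOG00000031979), Co3 (ENSRNOG00000030700), Nd3 (ENSRNOG00000033615), Nd4l (ENSRNOG00000031053), Nd4 (ENSRNOG00000029707), Nd5 (ENSRNOG00000029971), Nd6 (ENSRNOG00000029042) and Cytb (ENSRNOG00000031766). RNA-Seq of polyadenylated RNA was carried out on orbitofrontal cortex, taken from both hemispheres of HS (heterogeneous stock) rats, which are outbred animals bred from inbred founders. No rat had received a drug or a behavioral test, and cages were shared, so the groups differ in sex and in the rat batch number of the labels and in no treatment. There were 41 males and 39 females: 11 and 4 of them in batch 2, 10 and 12 in batch 3, 12 and 14 in batch 4 and 8 of each in batch 6, plus 1 female that made up batch 5 and was left out of the batch tests. Sex was taken from the labels, which over all 88 samples hold more males than females, while the authors' text counts more females than males. The labels give no age for a rat and do not say whether a batch is a shipment, a litter or a dissection day.

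Mitochondria carry a small circular genome whose protein genes all encode subunits of the oxidative phosphorylation machinery of the inner membrane, while most other subunits are encoded in the nucleus. Nd1 to Nd6 and Nd4l belong to complex I, which takes electrons from NADH. Cytb belongs to complex III, Co1 to Co3 form the catalytic core of complex IV (cytochrome c oxidase), and Atp6 and Atp8 are part of the ATP synthase. Both strands of the circle are transcribed as long precursors that are cut into the single mRNAs, so most of these mRNAs start from the same precursor. Nd6 is the exception, since it is the only one of these genes read from the other strand. Neurons depend heavily on this pathway for ATP.

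The values are normalized counts: the authors' estimated reads per gene after an upper quartile scaling of each library. Tests used log2(normalized count + 1), and every log2 difference below is on that scale. The steps between values gave a depth of 5.67 to 25.6 M reads for a library (M for mega) and a median of 18.1 M. The table's columns ran in 3 stretches of ascending rat identifiers, of 21, 13 and 46 libraries. Batch 2 had 14 libraries in stretch 1 and 1 in stretch 2, batch 3 had 7, 12 and 3 in stretches 1 to 3, and batches 4, 5 and 6 lay in stretch 3. What these stretches stand for is not given in the sources used here, so batches 4 and 6 cannot be told apart from stretch 3 except through the few rats of batch 3. Rats are named by their batch and a number that follows accession order.

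The 13 genes held a large part of the counts in every rat. Their share of a library's normalized counts ranged from 5.73% to 12.1%, with a median of 9.30% and a mean of 9.33% ± 1.32 (SD, n = 80). Of that sum, the 3 complex IV genes took 51.1% on average, the 7 complex I genes 26.2%, the 2 ATP synthase genes 13.6% and Cytb 9.14%. The 5 genes with the highest mean count in the table were all among the 13, as were 8 of the top 9.

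**Figure D1:**
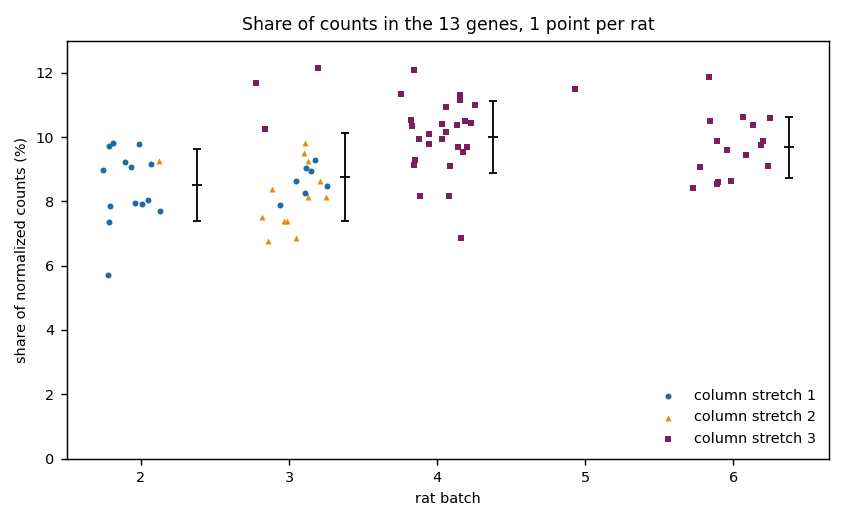
Share of each library's normalized counts (%, vertical axis) in the 13 mitochondrially encoded protein genes by rat batch (horizontal axis), 1 point per rat, with colour and shape for column stretch and black bars for the batch mean ± SD. Points are spread sideways only to separate them; the 3 rats of batch 3 in stretch 3 lie at 10.25% to 12.1%, above the other 19 rats of that batch.

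In batch 2 the share was 8.51% ± 1.13 (SD, n = 15), and batch 3 was close to it at 8.75% ± 1.37 (SD, n = 22). Batch 4 had 9.999% ± 1.12 (SD, n = 26), batch 6 had 9.68% ± 0.958 (SD, n = 16), and the rat of batch 5 had 11.5%. The ranges of the 4 batches overlapped. Within batch 3 the share was 8.65% ± 0.488 in the 7 rats of stretch 1, 8.15% ± 1.01 in the 12 of stretch 2 and 11.4% ± 0.988 in the 3 of stretch 3 (SD). Males had a mean share of 9.22% ± 1.41 (SD, n = 41) and females 9.44% ± 1.24 (SD, n = 39), a gap well inside the spread. The recovered depth moved with the share at its ends: it had a median of 14.5 M in the 10 libraries with the lowest shares and 18.0 M in the 10 with the highest, and its part in the share was not tested. The 10 with the highest shares also lay in stretch 3, so depth and stretch are mixed here. The shallowest library, rat 1 of batch 2 at 5.67 M, had a share of 9.08%, and the lowest share of 5.73% came at 16.1 M. Brain tissue is a mixture, so fewer cells of a type and less RNA per cell cannot be told apart.

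The levels differed widely between the 13 genes. Read counts also grow with transcript length, which was not available here, so the order below is one of counts and not of molecules. Co1, the largest catalytic subunit of cytochrome c oxidase, had the highest mean count of the table, with normalized counts of 343025 in the lowest rat, 520884 in the median and 717479 in the highest. The neighbouring ranks went to Atp6 (144299, 226848 and 311047), the proton channel subunit of ATP synthase, and to Co3 (130234, 210372 and 272931). Co2, which accepts electrons from cytochrome c, ran from 94301 through 167474 to 231385, and Cytb from 88631 through 160414 to 212771. The ranges of Atp6 and Co3, and of Co2 and Cytb, overlapped over most of their width.

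Among the complex I genes, Nd4, Nd1 and Nd2 followed at ranks 7, 8 and 9 of the table, with medians of 137642, 123352 and 118801, and overlapped over most of their width. Nd5 had a median of 56769 and rank 14. Nd3, Atp8 and Nd4l lay lower, at ranks 115, 152 and 330, with medians of 16308.5, 13939.5 and 8236.5. Atp8 and Nd4l are read from frames that overlap those of Atp6 and Nd4 on shared mRNAs, so how reads were split between the partners is uncertain. Reads from nuclear copies of mitochondrial sequence can also not be separated in these values.

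Nd6 stood far below the others, at rank 4759. Its normalized count ran from 281 through a median of 762 to 2187, on 263 to 1826 recovered reads per library, and its highest rat stayed below the lowest Nd4l value of 3271. Its highest rat was 7.78-fold above its lowest, against 2.09-fold for Co1. The strand setting of the counting is not given in the sources used here. Without it, reads of Nd6 and reads of antisense RNA from the opposite precursor cannot be told apart.

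**Figure D2:**
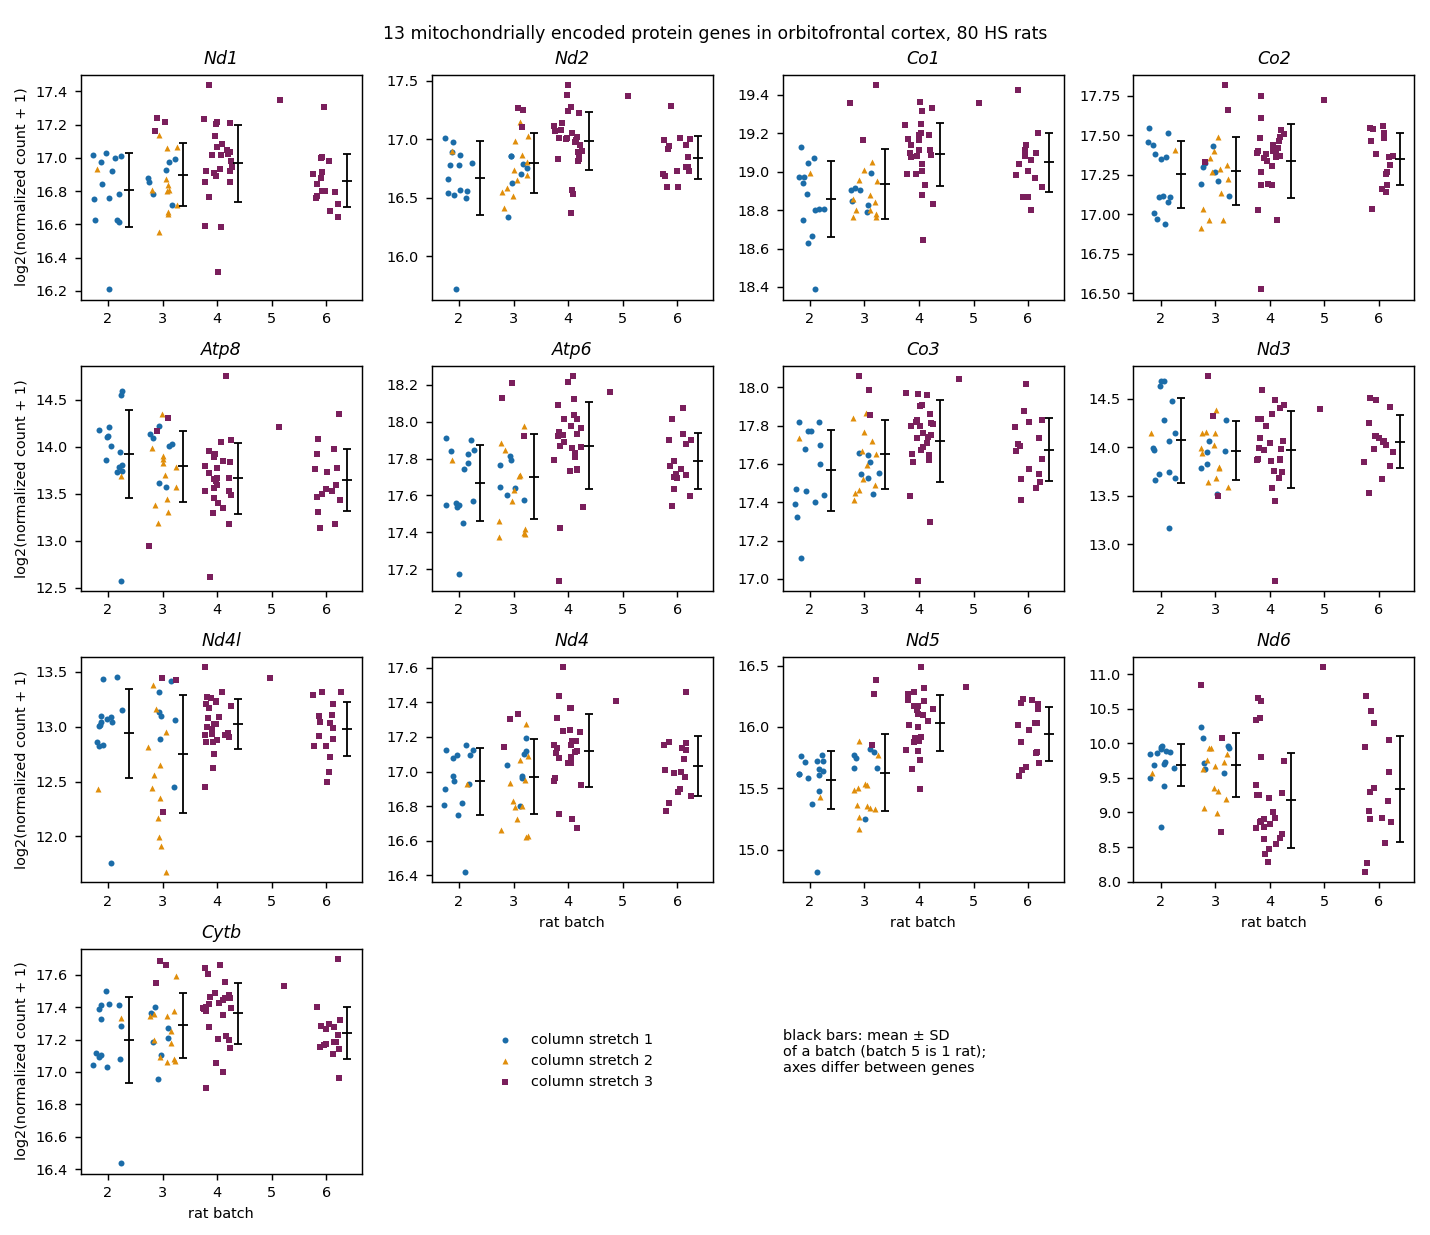
Level of each of the 13 genes, log2(normalized count + 1) on the vertical axis, by rat batch on the horizontal axis, with 1 point per rat, colour and shape for column stretch, and black bars for the batch mean ± SD. Vertical axes differ between panels; Nd5 lies higher in batches 4 and 6 than in batches 2 and 3, and Nd6 spreads from 281 to 1635 normalized counts within batch 6.

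The first comparison asked whether the rat batches differed in the level of these genes once sex was accounted for. By the moderated F test of limma over batches 2, 3, 4 and 6, 6 of the 13 genes passed an adjusted p of 0.05, where 64.7% of all genes tested did. The scaling changed this count: quantile normalization, which ties the top ranks of a library to fixed values, gave 10 of 13 (64.2% of all genes), as did rescaling to an equal total over the genes outside the set (64.5% of all genes). Mean depth was 16.8 M, 16.05 M, 19.2 M and 19.9 M in batches 2, 3, 4 and 6, and with log2 depth as a covariate 4 of the 13 passed (61.5% of all genes). The 6 were Nd5 (adjusted p = 6.52e-08), Co1 (0.00113), Nd2 (0.00400), Nd6 (0.0138), Atp6 (0.0257) and Nd4 (0.0431). The other 7 had adjusted p-values from 0.105 for Nd4l to 0.763 for Nd3.

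Nd5, a proton pumping subunit of complex I, had the smallest p. Its normalized count was 28871, 50290 and 56034 in the lowest, median and highest rat of batch 2. In batch 3 these values were 36849, 49702 and 85214. In batch 4 they were 46014, 68842.5 and 91669, and in batch 6 they were 49705, 65240 and 76897. The median rats of batches 4 and 6 thus lay above the highest rat of batch 2, although the ranges overlapped. Nd5 was 0.47 higher in batch 4 than in batch 2 (log2 difference, SE 0.08, adjusted p of limma 1.30e-06) and 0.40 higher than in batch 3 (SE 0.07, adjusted p = 3.13e-06). In batch 6 it was 0.39 above batch 2 (SE 0.09, adjusted p = 2.1e-04) and 0.32 above batch 3 (SE 0.08, adjusted p = 7.56e-04). With column stretch as a further term, the differences from batch 2 turned to -0.04 for batch 4 and -0.13 for batch 6, and that of batch 4 from batch 3 to -0.14, none of them past the threshold.

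In batch 4 against batch 2, 8 of the 13 genes were higher (24.5% of all genes were) and 1 was lower (24.1% of all genes were). The 8 were Nd1, Nd2, Co1, Atp6, Co3, Nd4, Nd5 and Cytb, with log2 differences of 0.16 to 0.47, and they include members of all 4 complexes. Under quantile normalization Nd1 turned to -0.02 and Co1 to -0.03, and of the 8 calls 2 were left, Nd2 and Nd5. The median of all genes was then -0.016. Shares of all genes called in a single contrast were computed with the deposited values only, so none stands beside that count. As deposited, Nd2 was 0.32 higher (SE 0.08, limma adjusted p = 8.2e-04) and Co1 0.24 higher (SE 0.06, adjusted p = 5.59e-04). The lowest, median and highest normalized counts of Nd2 were 53858, 112142 and 131900 in batch 2 and 84635, 131438 and 180917 in batch 4. Those of Co1 were 343025, 484456 and 573963 in batch 2 and 410305, 563952 and 674733 in batch 4. Median rats of batch 4 lay close to the top of batch 2 for both genes. The median log2 difference of the 13 genes was 0.16, against 0.01 for all genes.

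Co2, Atp8, Nd3 and Nd4l did not pass the test between batches 4 and 2, with log2 differences of 0.08, -0.27, -0.10 and 0.08. Atp8, a small ATP synthase subunit, had the lowest, median and highest normalized counts of 6094, 15757 and 24810 in batch 2 and of 6260, 12923.5 and 27593 in batch 4, which overlap nearly whole. These values set Atp8 apart from Atp6, with which it shares an mRNA: the log2 ratio of Atp8 to Atp6 was -3.74 ± 0.32 in the 15 rats of batch 2 and -3.91 ± 0.30 in the 22 of batch 3 (SD). It was -4.21 ± 0.24 in the 26 rats of batch 4 and -4.15 ± 0.25 in the 16 of batch 6 (SD). By column stretch it was -3.72 ± 0.28, -3.94 ± 0.15 and -4.19 ± 0.27 in stretches 1 to 3 (SD). Inside batch 3 it was -3.74 ± 0.21 (n = 7), -3.92 ± 0.15 (n = 12) and -4.28 ± 0.60 (n = 3) in the same order. Batch and stretch can therefore not be told apart in this ratio. A ratio within a library does not depend on a single scaling factor for that library.

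Batch 4 against batch 3 gave 6 of the 13 higher, where 21.2% of all genes were higher, and 1 lower, where 21.6% were. The 6 were Nd2 (0.19), Co1 (0.15), Atp6 (0.17), Nd4l (0.27), Nd4 (0.15) and Nd5 (0.40). Batch 6 against batch 2 gave Co1 (0.19, but -0.02 under quantile normalization) and Nd5 (0.39), 2 of 13 where 27.2% of all genes were higher, and 0 lower, where 26.6% were. Batch 6 against batch 3 gave Nd5 alone, where 25.8% were higher and 25.1% lower. In this contrast 9 of the 13 were higher under quantile normalization and 6 under an equal total, whether over all genes or over those outside the set. The median log2 difference of all genes moved as well, from 0.008 as deposited to -0.016 under quantile normalization. It was 0.095 with an equal total over all genes and 0.109 with one over those outside the set. Shares of all genes called were not computed for these scalings. Between batches 3 and 2, and between batches 6 and 4, limma called 0 of the 13 in either direction. Of all genes, batch 3 had 4.56% above and 5.23% below batch 2, and batch 6 had 6.11% above and 7.49% below batch 4. The smallest adjusted p among the 13 was 0.364 for the first pair and 0.209 for the second. Under quantile normalization Nd1 (-0.33), Co1 (-0.30) and Nd4 (-0.35) were called lower in batch 3 than in batch 2, and 1 of the 13 differences was positive against 9 as deposited. No share of all genes stands beside these calls, and the median of all genes was 9.1e-05 in that setting. The contrasts share batches, so they are not independent of each other.

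**Figure D3:**
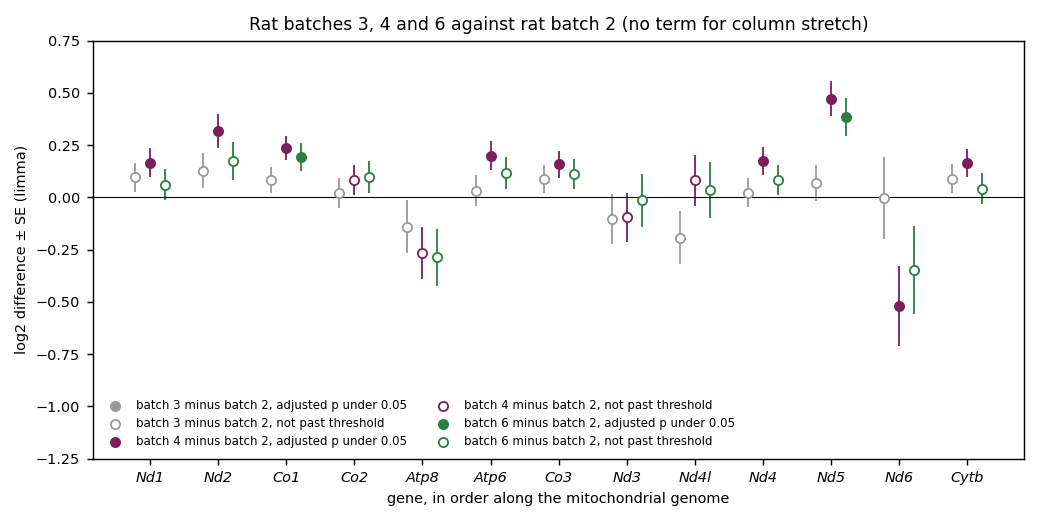
Log2 difference ± SE (limma, vertical axis) of batches 3, 4 and 6 from batch 2 for each gene (horizontal axis), filled where the adjusted p was under 0.05. With no term for column stretch, 8 genes are filled above 0 in batch 4 (with such a term all 8 turn negative, and under quantile normalization Nd1 and Co1 do), Nd5 and Co1 are filled in batch 6, and Nd6 is the only gene filled below 0.

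Nd6, a membrane subunit of complex I, went the other way. Its normalized counts in the lowest, median and highest rat were 443, 851 and 992 in batch 2 and 421, 843 and 1829 in batch 3. They were 312, 480 and 1604 in batch 4 and 281, 601 and 1635 in batch 6, and the rat of batch 5 had 2187. Most rats of batch 4 were thus low while a few were high: 4 rats each in batches 3, 4 and 6 exceeded 1000, and 0 in batch 2. Nd6 was 0.52 lower in batch 4 than in batch 2 (log2 difference -0.52, SE 0.19, limma adjusted p = 0.0191) and than in batch 3 (log2 difference -0.52, SE 0.17, adjusted p = 0.00887). The batch 6 differences of -0.35 from batch 2 and -0.34 from batch 3 did not pass the threshold.

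The direction of these batch differences rested on how column stretch was treated. With stretch as a further term, 0 of the 13 genes passed the F test of limma, where 18.6% of all genes did, and the log2 differences of the 8 genes above turned negative, from -0.04 for Nd5 to -0.27 for Cytb. The difference of Nd6 from batch 2 stayed negative at -0.58 but no longer passed the test (adjusted p = 0.483). Among the rats of stretch 1 alone, batches 2 and 3 gave 0 of 13 (1.94% of all genes). Among those of stretch 3 alone, batches 3, 4 and 6 gave Cytb only (adjusted p = 0.0296), where 13.8% of all genes were called, and batch 3 was represented by 3 rats. The batches and the stretches can therefore not be told apart in these genes.

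Batch 3 was the batch that spanned all 3 stretches, and its rats differed by stretch. After sex was accounted for, 9 of the 13 genes passed the F test of limma between stretches within batch 3, where 11.2% of all genes did. These were Nd1, Nd2, Co1, Co2, Atp6, Co3, Nd4, Nd5 and Cytb, and all 9 were higher in stretch 3 than in stretch 2 (5.2% of all genes were higher and 6.37% lower), by 0.35 to 0.71 on the log2 scale. Against stretch 1, stretch 3 was higher in Nd2, Co1, Co3 and Cytb (4 of 13, where 1.01% of all genes were higher and 1.83% lower). Stretches 2 and 1 differed in 0 of the 13 by limma (0.619% of all genes were higher and 0.385% lower). Atp8, Nd3, Nd4l and Nd6 did not pass, with adjusted p-values of 0.137 to 0.554. Co1 had 453756 to 521438 normalized counts in the 7 rats of stretch 1, 445423 to 543047 in the 12 of stretch 2, and 587597, 671137 and 717479 in the 3 of stretch 3, with no overlap. Nd5 had 39046 to 57783, then 36849 to 60392, and then 59187, 79118 and 85214, of which the first lay below the highest rat of stretch 2. This result rests on 3 rats: leaving out rat 6 or rat 20 of batch 3 left 0 of the 13 called by limma (smallest adjusted p 0.061 and 0.0605), and leaving out rat 16 gave 12. The calls over all genes moved too, to 1.03% and 0.958% without rat 6 and rat 20 and to 19.4% without rat 16. Under quantile normalization 1 of the 13 was called, with 11.5% of all genes.

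The ratio of Nd5 to Nd4 followed the same split. Its log2 value was -1.36 ± 0.10 in stretch 1 (SD, n = 21), -1.41 ± 0.08 in stretch 2 (n = 13) and -1.09 ± 0.12 in stretch 3 (n = 46). Inside batch 3 it was -1.35 ± 0.10 (n = 7), -1.40 ± 0.08 (n = 12) and -1.09 ± 0.17 (n = 3). Both genes are complex I subunits read from the same strand, next to each other but for transfer RNA genes. For Nd6 over Nd1 the log2 ratio was -7.07 ± 0.21 in stretch 1, -7.30 ± 0.35 in stretch 2 and -7.64 ± 0.79 in stretch 3 (SD), lower and more spread in the last. Inside batch 3 it was -7.01 ± 0.21 (n = 7), -7.30 ± 0.37 (n = 12) and -7.33 ± 1.04 (n = 3), so stretches 2 and 3 lay close there. Batches 4 and 6, which lay in stretch 3, had -7.80 ± 0.73 and -7.52 ± 0.80 (SD).

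The next comparison asked whether males and females differed. No gene of the 13 passed limma's test with batch as a factor (0.117% of all genes did). The differences, males minus females, ran from -0.02 for Nd6 (SE 0.13) to 0.03 for Nd5 (SE 0.06), and adjusted p-values from 0.957 to 0.999. None of the 13 had an unadjusted p under 0.05, and the smallest was 0.558. Co1 had the smallest SE, 0.04, around a difference of 0.01. No interaction of sex and batch was found either: limma called 0 of the 13, as it did 0% of all genes, and the smallest unadjusted p was 0.373. With voom on recovered reads, sex also gave 0 of 13.

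The genes moved together from rat to rat. Correlations were computed on residuals after sex and batch had been removed, over 79 rats of batches 2, 3, 4 and 6, with permutations within batch and adjustment over the 78 pairs. All 78 Pearson correlations were positive, from 0.07 to 0.957 with a median of 0.732, and 71 had an adjusted p under 0.05 (70 by Spearman's rho). How many pairs of other genes would pass was not computed, so no share stands beside the 71. For scale, the median r over all pairs of genes with a mean log2 value of at least 3 was -0.00175. Over pairs of the 100 most abundant other genes it was 0.122, with a range from -0.674 to 0.915. The rats share their libraries' scaling across all genes, so these correlations describe the values and not a cause. Within batches 2, 3, 4 and 6 the median over the 78 pairs was 0.855, 0.773, 0.753 and 0.673, and 74 pairs were positive in each of the 4 batches. Batch 2 includes rat 16, which was among the lowest 3 of all 80 rats for 12 of the genes. Its median was not computed without that rat. Removing log2 depth as well gave a median of 0.739, and removing column stretch as well gave 0.741. Under quantile normalization the median was 0.393.

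**Figure D4:**
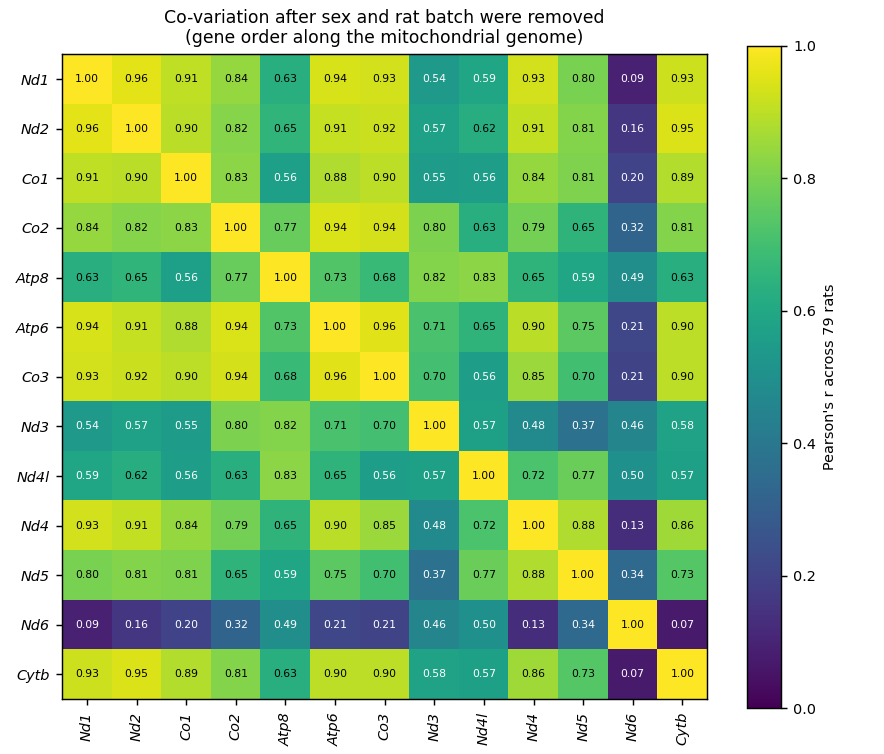
Pearson's r across 79 rats (colour and printed value) for every pair of the 13 genes, on residuals after sex and rat batch were removed, both axes in gene order along the mitochondrial genome. The Nd6 row is the darkest, at 0.07 to 0.50, Atp8, Nd3 and Nd4l are intermediate, and the other 9 genes range from 0.65 to 0.957 among themselves.

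The closest pair was Nd1 and Nd2, both complex I membrane subunits that are neighbours on the genome (r = 0.957, rho = 0.967, permutation test p = 1e-05 for each, the smallest it can give, adjusted p = 1.2e-05 and 1.3e-05). Without the 2 rats farthest from the median of Nd1, r was 0.954, and within batches it lay between 0.943 and 0.985. Atp6 and Co3, which adjoin each other, followed (r = 0.957, rho = 0.953, the same p, without 2 rats 0.945). The 9 genes Nd1, Nd2, Co1, Co2, Atp6, Co3, Nd4, Nd5 and Cytb had a median r of 0.891 among themselves.

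Atp8, Nd3 and Nd4l, whose frames are the shortest on their strand, were set apart after their values were seen. Their median r with the 9 genes was 0.625, and among themselves it was 0.815 over 3 pairs, of which Nd3 with Nd4l had r = 0.570. The grouping was not clean: Nd3 had r = 0.804 with Co2, and Nd4l had r = 0.775 with Nd5. Atp8 correlated with Nd4l at r = 0.825 (rho = 0.829, without 2 rats 0.800) and with Atp6, its partner on the same mRNA, at r = 0.729 (rho = 0.735, without 2 rats 0.707), each at a permutation p = 1e-05. Nd4l and Nd4, the other pair on a shared mRNA, had r = 0.716 (rho = 0.735, without 2 rats 0.668, permutation p = 1e-05). The residual SD of Atp8, Nd3 and Nd4l was 0.390, 0.362 and 0.381 on the log2 scale, against 0.175 to 0.256 in the 9 genes.

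Nd6, the gene of the other strand, followed the rest least. Its r with the other 12 genes ran from 0.07 with Cytb to 0.50 with Nd4l, with a median of 0.209, and 5 of 12 pairs passed the threshold. The 5 were those with Co2, Atp8, Nd3, Nd4l and Nd5. With Nd1 it was r = 0.0911 (rho = 0.110, permutation p = 0.427, adjusted p = 0.433), and without 2 rats r was -0.0407. With Nd4l it was r = 0.502 (rho = 0.505, permutation p = 1e-05, adjusted p = 1.2e-05), and without 2 rats r was 0.477. The median r of Nd6 with the others differed between batches, at 0.692 and 0.432 in batches 2 and 3 and at 0.121 and 0.126 in batches 4 and 6. In batch 2 its r with Nd1 was 0.712, and in batches 3, 4 and 6 it was 0.257, -0.0230 and -0.0723. These differences between batches were not tested, and batch 2 lay almost whole in stretch 1. Rat 16 had the lowest residuals of batch 2 for both Nd1 (-0.60) and Nd6 (-0.89). The batch 2 correlations include this rat and were not computed without it, so they may rest on it in large part.

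**Figure D5:**
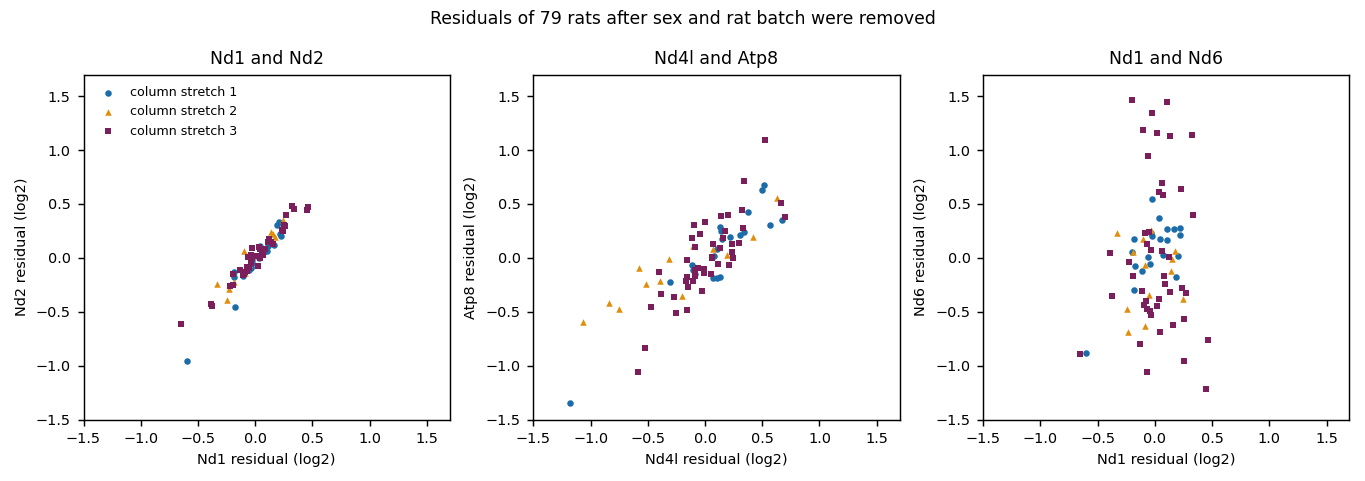
Residuals on the log2 scale after sex and rat batch were removed, 1 point per rat (n = 79), for Nd2 against Nd1, Atp8 against Nd4l and Nd6 against Nd1, on equal scales with colour and shape for column stretch. The first pair lies close to a line (r = 0.957), the second is broader (r = 0.825), and in the third the spread is along Nd6 (r = 0.0911), widest in stretch 3.

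Ranking all 14803 genes with a mean log2 value of at least 3 by their correlation with each of the 13 gave a description of how closed the set was. Members filled 8 to 11 of the 12 nearest places for Nd1, Nd2, Co1, Co2, Atp8, Atp6, Co3, Nd4, Nd5 and Cytb. They filled 5 for Nd3, 3 for Nd4l and 0 for Nd6. In 12 of the 13 the nearest gene was another of the set. For Nd6, 692 other genes had a higher r than its best partner of the set, led by ENSRNOG00000019740 (r = 0.771), a gene picked out after its value was seen. Against the mean residual of all 13, the genes outside the set with the highest r were ENSRNOG00000032840 (r = 0.680, rho = 0.677, without 2 rats 0.656, within batches 0.617 to 0.753) and ENSRNOG00000055860 (r = 0.679, rho = 0.646, without 2 rats 0.646). Those with the lowest were ENSRNOG00000013825 (r = -0.675, rho = -0.658) and ENSRNOG00000030705 (r = -0.674, rho = -0.554). They were chosen for their r, so no test is given, and the files pair these identifiers with no names.

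The spread among rats differed between the genes as their correlations did. The residual SD ran from 0.175 for Co1, about 1.13-fold per SD, to 0.596 for Nd6, about 1.51-fold. The median of the 13 was 0.216, against 0.203 for all genes with a mean of at least 3 and 0.112 for the 100 most abundant other genes. Batch took 41.4% of the variance of Nd5, 25.5% of that of Co1, 21.2% of Nd2, 20.9% of Nd6 and 3.13% of Nd3, with a median of 13.1% over the set against 22.1% over all genes with a mean of at least 3. Column stretch, fitted alone, took 52.8% for Nd5, 34.1% for Co1, 21.9% for Nd2, 8.34% for Nd6 and 0.497% for Nd3. Its median was 13.3% over the set against 16.7% over the same genes. Batch and stretch overlap, so these shares cannot be told apart. Sex took a median of 0.196%, against 0.529%.

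Single rats stood at the ends for many of the genes at once. Rat 16 of batch 2, a male in stretch 1, had the lowest share (5.73%), the lowest level of 7 of the genes and a place among the lowest 3 rats for 12 of them, at a recovered depth of 16.1 M. Rat 6 of batch 3, a female in stretch 3, had the highest share (12.1%), the highest level of 4 and a place among the highest 3 for 7. The rat of batch 5 had a share of 11.5%, was highest for Nd6 and was among the highest 3 for 6 of the genes.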

How the data were processed

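RNA-Seq libraries of orbitofrontal cortex from 80 rats were used. Another 8 labelled samples had been removed by the authors and had no column. The authors sequenced polyadenylated RNA as single-end reads, trimmed them with cutadapt, took estimated counts per gene from RSEM on the Ensembl rat transcriptome (Rnor_6.0 per the submitters' processing notes), applied an upper quartile adjustment with DESeq2, and deposited the values as log2 after a pseudocount of 1. By their methods, genes with few reads had been filtered out. Tool versions and the strand setting are not given in the sources used here.

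The deposited log2 values were raised back to normalized counts. For each library a step of 0.733 to 3.51 per read was chosen by how often each whole value up to 300 occurred. It gave recovered reads and depth (counting error only). After rounding, 99.9% to 100% of these values were whole multiples of the step. For steps no larger than the gap between whole numbers, 100% was fixed in advance, so this percentage is no check of the step there. limma 3.58.1 in R 4.3.3 (lmFit, eBayes with a mean trend) was fitted on all 17123 genes, with Benjamini-Hochberg adjustment over all of them and a threshold of 0.05: a moderated F test for batch with sex, sex with batch as a factor, and their interaction. Correlations used 100000 permutations within batch. Voom was run on recovered reads with upper quartile scaling. Other steps used Python 3.11.15 with pandas 2.3.3, numpy 2.4.6 and scipy 1.17.1, and figures matplotlib 3.10.9. Models were tested on simulated data.

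The genes and comparisons were chosen with earlier results of these data known. The genes named were all 13 members, plus the 2 genes outside the set with the highest and the 2 with the lowest correlation with the mean of the members. ENSRNOG00000019740 is named outside this rule. Column stretches, their use inside batch 3, and voom were chosen after seeing the data. The RefSeq gene table holds 0 of the 17123 Ensembl identifiers. Lists of cell type markers and nuclear pathway genes were therefore not run, the tissue label was not checked against markers, and the names of the 13 genes come with the definition of the set. Coordinates, lengths and sequences of the 13 genes were not used here.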

Additional observations from a re-analysis of the deposited data

Results flagged for a closer look

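In the 4 groups of 4 to 10 rats of 1 sex and 1 batch, 14 values each were checked (the 13 genes and their share), 56 in all. In 3 of these a rat lay farther from its nearest neighbour than Dixon's 95% limit, about as many as the 1 in 20 that chance gives, and values of the same rats are not independent. Co2 was 17.07 on the log2 scale in rat 6 of batch 2, with the nearest of the other 3 females at 17.35. Cytb was 16.96 in rat 2 of batch 6, below the other 7 males, of which the nearest had 17.15. Nd1 was 17.30 in rat 11 of batch 6, above the other 7 females, of which the nearest had 16.98.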

How the results depend on the processing

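Between rat batches, 6 of the 13 genes were called as reported. Quantile normalization, an equal total over the genes outside the set, an equal total over all genes and array weights each gave 10, with 64.2% to 67.5% of all genes called. Females alone gave 1 (36% of all genes), and 20 principal components as covariates gave 0, with 1 gene called of all 17123. Those components were taken from the same values and can take up the batch difference, so that setting cannot test it. Column stretch as a term gave 0 (18.6%), stretch 1 alone 0 (1.94%) and stretch 3 alone 1 (13.8%). The other alternatives gave 4 or 6. Quantile normalization ties a library's top ranks, which these genes hold, to fixed values. Of the differences called as deposited, it turned Nd1 (-0.021) and Co1 (-0.029) in batch 4 minus batch 2 and Co1 (-0.025) in batch 6 minus batch 2. Of those not called, it turned Co2 (-0.007) and Nd3 (0.031) in batch 4 minus batch 2 and Nd3 (0.16) in batch 6 minus batch 2. In batch 6 minus batch 3 it turned Nd1 (0.33) and Cytb (0.19), both then called. In batch 6 minus batch 4 it turned Nd1, Co1, Atp8, Atp6 and Co3, none called. In batch 3 minus batch 2, where none of the 13 was called as deposited, it turned Nd1, Nd2, Co1, Co2, Atp6, Nd4, Nd5 and Cytb, with values from -0.05 for Nd5 to -0.35 for Nd4. An equal total outside the set shifted the median of all genes by up to 0.10 (batch 6 minus batch 3).

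With column stretch as a term, batch 4 minus batch 2 turned to -0.19 for Nd1, -0.21 for Nd2, -0.23 for Co1, -0.23 for Atp6, -0.25 for Co3, -0.093 for Nd4, -0.044 for Nd5 and -0.27 for Cytb. Batch 4 minus batch 3 turned to -0.23 for Nd2, -0.23 for Co1, -0.22 for Atp6, -0.0080 for Nd4l, -0.14 for Nd4 and -0.14 for Nd5. In stretch 3 alone these were -0.22 for Nd2, -0.23 for Co1, -0.21 for Atp6, -0.0037 for Nd4l, -0.14 for Nd4 and -0.13 for Nd5. Batch 6 minus batch 2 turned to -0.27 for Co1 and -0.13 for Nd5. With 20 components Nd6 in batch 4 minus batch 2 was 0.047. The cause was not tested.

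Inside batch 3, the 9 genes called between stretches became 1 under quantile normalization (11.5% of all genes) and 0 to 12 when each of the 3 rats of stretch 3 was left out in turn (without rat 6 or rat 20, 0). Sex and the interaction gave 0 in every alternative run (for sex, 15 alternatives, adjusted p from 0.551 to 1, and 4 of 195 unadjusted p-values under 0.05). The median share was 11.005% when the 100 most abundant other genes were left out of the total, against 9.30%. The median correlation of 0.732 became 0.393 under quantile normalization and 0.855 in batch 2 alone (with its rat 16 included). The median residual SD of 0.216 became 0.151 with 20 components removed and 0.312 under quantile normalization. No paired analysis was made, since each rat gave a single library here. The numbers given to rats follow accession order and mark no pairs. Nd6, at 263 to 1826 reads, is the gene whose values depth limits most.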
